A study of Homo sapiens with 18 samples.

Results

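The genes described here are 7 metallothioneins (MT1E, MT1F, MT1G, MT1H, MT1M, MT1X and MT2A), the zinc exporter SLC30A1 and the transcription factor MTF1. They were taken by symbol from the deposited tables, and all 9 were found among the 23686 gene symbols. Metallothioneins are small, cysteine-rich proteins that bind zinc and copper and buffer them in the cell. SLC30A1 (ZnT1) moves zinc out across the plasma membrane. MTF1 senses a rise in free zinc, binds metal response elements in promoters and switches on the metallothionein genes and SLC30A1. The 7 metallothionein genes lie on chromosome 16, while SLC30A1 and MTF1 are on chromosome 1. Leaving out any genes between them, the order of the 7 is MT2A, MT1E, MT1M, MT1F, MT1G, MT1H and MT1X.

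RNA was measured by sequencing of rRNA-depleted libraries from OCI-Ly1 and TMD8, established cell lines of human diffuse large B-cell lymphoma. JIB-04 is a small molecule that inhibits Jumonji-domain histone demethylases, enzymes that need iron in their active site. Each line had 3 groups of 3 libraries: cells given 0.01% DMSO, the vehicle, cells given 150 nM JIB-04, and cells given 500 nM JIB-04. The medium was IMDM for OCI-Ly1 and RPMI 1640 for TMD8, so effects of line and medium cannot be told apart. The 3 libraries of a group are technical triplicates, and the labels do not say whether they came from separate cultures, so the p-values below measure only the spread between these libraries. The labels give no treatment time. Both doses were compared with the same DMSO libraries, so their results are not independent of each other.

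The estimated counts of a library summed to between 17579700 and 32651100 for OCI-Ly1. For TMD8 the range was 9550090 to 20509500, and the shallowest library was one at 500 nM. All 5 B cell markers reported (MS4A1, CD79A, CD79B, CD22 and PAX5) were present in every group. Their summed normalised read count was 1219.85 to 1271.5 CPM (counts scaled by TMM and library size) with DMSO and 1047 to 1083 at 500 nM in OCI-Ly1, and 2657 to 2834 with DMSO and 2234 to 2279.9 at 500 nM in TMD8. Single markers went both ways at 500 nM by edgeR at an adjusted p under 0.05. In OCI-Ly1 2 were called higher and 3 lower (27.7% and 25.9% of all genes). In TMD8 1 was called higher and 3 lower (29.9% and 30.7% of all genes). Of 6 markers of other cell types, CD3D, CD3E and EPCAM held at most 3 counts in every TMD8 library. COL1A1, a fibroblast collagen gene, rose in TMD8 as the metallothioneins did, from 3.50 ± 0.408 CPM (SD, n = 3) in DMSO libraries to 11.7 ± 2.33 at the lower and 29.8 ± 0.366 at the higher dose. The summed level of the 6 markers rose with it, from 7.36 to 9.70 CPM with DMSO to 35.8 to 37.2 CPM at 500 nM, and its part in the results was not tested. In OCI-Ly1 that sum was 17.6 to 20.7 CPM with DMSO and 10.0 to 10.4 at 500 nM. CD3D, EPCAM and PECAM1 held 88 to 144, 93 to 146 and 133 to 219 counts there with DMSO. At 500 nM these 3 of the 4 tested were called lower and none higher (25.9% and 27.7% of all genes). Their log2 fold changes were -1.38, -0.71 and -0.92. In TMD8 2 were tested at 500 nM, 1 called higher (COL1A1) and none lower (29.9% and 30.7% of all genes). In bulk RNA, a change in the share of cells that express a gene and a change in RNA per cell cannot be told apart.

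Promoters are shown first. Those found differ in how often they carry the core of the metal response element. Whether the number of cores goes with the changes in RNA was not tested. The RefSeq promoter table (GRCh38.p14) held 5 of the 9 genes. The core searched was TGCACNC or TGCGCNC, on either strand, in the 250 bases before the gene's start. In the sequences below, written 5′ to 3′ on the gene's strand, capitals mark each core or its reverse complement.
MT2A, chr16:56608334-56608583, + strand: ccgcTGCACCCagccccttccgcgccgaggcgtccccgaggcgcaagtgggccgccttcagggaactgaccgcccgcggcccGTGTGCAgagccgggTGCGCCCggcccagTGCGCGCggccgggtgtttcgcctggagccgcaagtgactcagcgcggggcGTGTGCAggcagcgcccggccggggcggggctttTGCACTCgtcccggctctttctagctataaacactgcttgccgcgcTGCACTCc
MT1H, chr16:56669564-56669813, + strand: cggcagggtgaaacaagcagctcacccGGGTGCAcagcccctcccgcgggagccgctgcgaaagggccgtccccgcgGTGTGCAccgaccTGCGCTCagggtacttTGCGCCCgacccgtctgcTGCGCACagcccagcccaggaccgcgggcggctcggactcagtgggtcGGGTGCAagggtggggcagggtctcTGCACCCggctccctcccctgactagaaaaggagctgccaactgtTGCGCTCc
MT1X, chr16:56682220-56682469, + strand: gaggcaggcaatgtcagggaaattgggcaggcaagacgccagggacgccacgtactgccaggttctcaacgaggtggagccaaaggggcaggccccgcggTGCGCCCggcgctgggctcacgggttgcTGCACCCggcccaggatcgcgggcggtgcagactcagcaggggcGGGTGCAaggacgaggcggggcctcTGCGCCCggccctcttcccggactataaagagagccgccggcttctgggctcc
SLC30A1, chr1:211579162-211579411, - strand: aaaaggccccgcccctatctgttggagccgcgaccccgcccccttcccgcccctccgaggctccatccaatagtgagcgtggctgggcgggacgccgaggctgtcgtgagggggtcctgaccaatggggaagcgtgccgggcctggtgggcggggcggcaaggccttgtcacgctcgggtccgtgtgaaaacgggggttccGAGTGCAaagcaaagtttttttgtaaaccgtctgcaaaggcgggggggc

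MT1H held 8 cores, MT2A 7, MT1X 4 and SLC30A1 1. None was found in the same window of MTF1 (chr1:37859593-37859842, - strand), which says only that these letters are not there. Among 35116 promoters of the same length, 24.8% held at least 1 core, 0.37% at least 4, 0.0313% at least 7 and 0.0171% at least 8. The cores nearest to the start began 8 bases before it in both MT2A and MT1H, 53 bases before it in MT1X and 49 bases before it in SLC30A1. A match to the core is a description of the sequence, not a measured binding site. The promoters of MT1E, MT1F, MT1G and MT1M were not matched.

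In DMSO-treated cells the family was carried by MT1X and MT2A, and 5 of the 7 metallothionein genes were near the limit of detection in OCI-Ly1. The OCI-Ly1 DMSO libraries held 0, 0 and 0 counts of MT1E, MT1H and MT1M. MT1G had 0, 0 and 1 counts there, and MT1F had 4, 0 and 0. A count of 0 allows up to 3 counts per library, so these genes are undetected rather than absent. By contrast, TMD8 DMSO libraries held 55, 63 and 77 counts of MT1F, 7, 10 and 7 of MT1E and 3, 10 and 3 of MT1G. MT1H was at 1, 2 and 1 counts and MT1M at 0 in all 3 of them.

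The whole-family sum of the 7 metallothioneins was lower in OCI-Ly1 than in TMD8 with DMSO, and the size of the gap depended on the unit. On a scale common to all 18 libraries, it was 3.46 ± 0.658 CPM in OCI-Ly1 and 22.9 ± 1.63 CPM in TMD8 (SD, n = 3 each), a 6.61-fold gap. In TPM, which divides by gene length and then scales each library to the same total, the gap was 3.35-fold. Why the units differ was not tested. All 3 OCI-Ly1 libraries lay below all 3 TMD8 libraries.

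Of 8 genes tested between the DMSO groups, 8 were called lower in OCI-Ly1 by edgeR, in a comparison where 76.7% of all genes tested were called and 39% were called lower. MT1E, MT1G and MT1H did not meet the low-count filter in the DMSO groups and entered through treated ones, and MT1H was at the floor of 3 counts in both groups. The other 5 genes met the filter in TMD8 with DMSO alone, and all 5 were called lower in OCI-Ly1. Calls throughout are at an adjusted p under 0.05, with the Benjamini-Hochberg method over all genes. MT1X was lower by a log2 difference of -2.34 (SE 0.16) and MT2A by -2.52 (SE 0.25). MT1E, with no count in OCI-Ly1, was at least 3.55-fold lower there. SLC30A1, the exporter, had 67, 38 and 36 counts in OCI-Ly1 and 293, 336 and 348 in TMD8, a log2 difference of -3.24 (SE 0.13, edgeR adjusted p 1.0e-18). Its level was 1.403 ± 0.385 TPM in OCI-Ly1 and 6.81 ± 0.741 TPM in TMD8, and the log2 difference on the log2(TPM + 1) scale was -1.71. The direction for MTF1, the metal sensor, was not stable: it was lower in OCI-Ly1 in counts (log2 difference -0.46, SE 0.07) and higher there on the log2(TPM + 1) and log2(TPM + 0.1) scales (0.39 and 0.49).

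At 150 nM no metallothionein was called changed in OCI-Ly1, while 6 were called higher in TMD8. In OCI-Ly1, MT1X had 52, 32 and 55 counts with DMSO and 56, 59 and 39 at 150 nM. MT2A had 51, 30 and 16 counts with DMSO and 35, 22 and 19 at 150 nM. For both genes the groups overlapped, with log2 fold changes of 0.13 (SE 0.20) and -0.38 (SE 0.32).

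SLC30A1 in OCI-Ly1 was also within the spread of its DMSO libraries at this dose, with 65, 63 and 48 counts and a log2 fold change of 0.30 (SE 0.19, edgeR adjusted p 0.64). MT1F held 7, 2 and 3 counts. MT1E held 0, 2 and 0, and MT1G, MT1H and MT1M held none in any of the 3 libraries. MTF1 stood at 25.1 ± 0.937 CPM against 24.5 ± 1.35 CPM with DMSO (SD, n = 3). Of the 7 genes tested, edgeR called 0, none of them had an unadjusted p under 0.05, and DESeq2 and limma also called 0. Across all genes 0.889% were called in this comparison, 0.748% higher and 0.141% lower. The family sum was 3.57 ± 0.359 CPM at 150 nM and 3.60 ± 0.670 CPM with DMSO.

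In TMD8 at 150 nM the family sum was 2.49-fold higher than with DMSO (54.4 ± 10.8 against 21.9 ± 1.498 CPM, SD, n = 3). MT2A, the most abundant of the family in TMD8 at this dose, had 113, 144 and 154 counts with DMSO and 318, 387 and 756 at 150 nM. Every treated library was above every DMSO library, for a log2 rise of 1.94 (SE 0.15, edgeR adjusted p 4.4e-08). Of the 8 genes tested, 7 were called higher and none lower. MT1E, MT1G and MT1H met the low-count filter only through treated groups, and of the 5 genes that met it with DMSO alone, 4 were called higher, against 44.2% of all genes called in either direction, 19.2% higher and 25% lower.

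Among the genes tested in TMD8, MT1H, MT1G and MT1E, all scarce with DMSO, rose most at 150 nM. They passed the low-count filter only through treated groups, so scarce genes that stayed low were not in this ranking. MT1M, also scarce, held at most 1 count in any library at 150 nM and was not tested. MT1H went from 1, 2 and 1 counts to 19, 30 and 53, a count ratio of 28.2 with an exact 95% counting interval of 10.7 to 105. The libraries carried no molecular identifiers, so such intervals cover counting error only. MT1G went from 3, 10 and 3 counts to 34, 33 and 71, and MT1E from 7, 10 and 7 to 27, 33 and 54. Their log2 fold changes were 3.21 (SE 0.34) and 2.36 (SE 0.25), with no overlap between groups. For MT1G the DMSO level rested on library 2, and the fitted log2 fold change without it was 4.005.

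Of the genes already expressed in TMD8 with DMSO, MT1F, MT1X and SLC30A1 changed less at this dose than MT2A (1.94 in log2). MT1F rose from 3.63 ± 0.210 to 5.37 ± 1.08 CPM and MT1X from 9.73 ± 1.55 to 12.8 ± 0.933 CPM (SD, n = 3). Their log2 fold changes were 0.58 (SE 0.15) and 0.42 (SE 0.11). SLC30A1 rose from 18.3 ± 0.711 to 23.0 ± 0.954 CPM, which is 0.33 in log2 (SE 0.07, edgeR adjusted p 9.8e-04). The calls of MT1X and SLC30A1 were lost on the log2(TPM + 1) scale, with limma adjusted p of 0.17 and 0.25. MTF1, at 28.3 ± 1.32 CPM against 30.9 ± 0.380 CPM, did not pass the test (edgeR adjusted p 0.097).

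**Figure D1:**
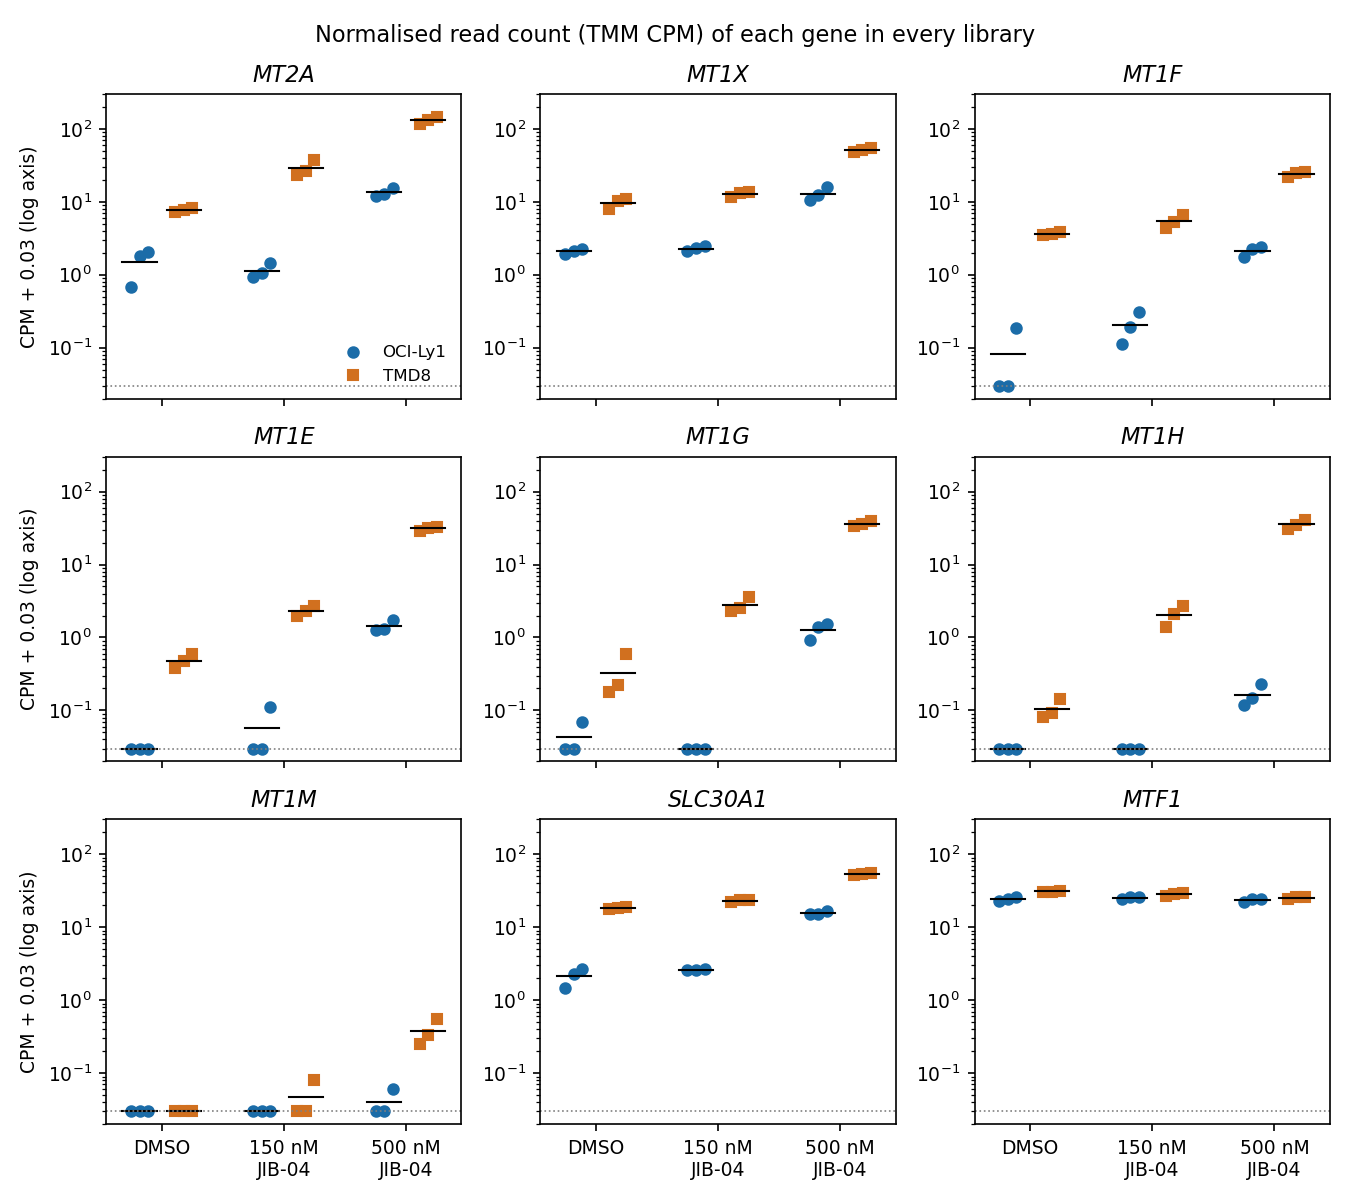
Normalised read count of each of the 9 genes in each of the 18 libraries, as CPM + 0.03 on a log axis, by group. Each point is a library, circles are OCI-Ly1, squares are TMD8, short lines are group means, and the dotted line marks a count of 0. The metallothioneins and SLC30A1 have their highest group mean at 500 nM in both lines, MTF1 stays between 21.9 and 31.4 CPM in all libraries, and MT1M never exceeds 0.527 CPM.

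At 500 nM 5 metallothioneins and the exporter rose in OCI-Ly1, and 6 and the exporter in TMD8. In OCI-Ly1 the family sum reached 31.2 ± 3.86 CPM, 8.69-fold the DMSO level, and the library with the lowest sum, 26.8 CPM, was far above the highest DMSO library, 4.24 CPM. MT1X had 527, 275 and 374 counts, a log2 fold change of 2.64 (SE 0.17, edgeR adjusted p 4.2e-10). MT2A had 429, 314 and 468 counts, a log2 fold change of 3.21 (SE 0.24, edgeR adjusted p 5.5e-09). SLC30A1 had 511, 433 and 456 counts, a log2 fold change of 2.89 (SE 0.16, edgeR adjusted p 9.3e-11). None of these groups overlapped with DMSO, and the exporter, with a 7.42-fold change, lay between MT1X (6.24-fold) and MT2A (9.22-fold).

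Of the genes that were at or near 0 in OCI-Ly1, MT1E, MT1G and MT1F became countable at 500 nM. MT1E had 42, 33 and 52 counts, at least 10.2-fold above the DMSO level, where 3 counts per library were taken as the floor. MT1G had 46, 23 and 45 counts, a count ratio of 85.2 over its single DMSO count, with an exact 95% counting interval of 14.98 to 3393. MT1F had 75, 44 and 72 counts, a count ratio of 35.7 (13.7 to 132). Its 4 DMSO counts were all in library 1, and without that library the other DMSO libraries held none. MT1H had 3, 3 and 6 counts and MT1M 1, 0 and 0, and neither passed the filter on low counts. MT1E, MT1F and MT1G did not meet the filter in the DMSO libraries and entered the test only through the group where they were high.

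Of the 7 genes tested in OCI-Ly1 at 500 nM, 6 were called higher and none lower. Of the 4 that met the filter with DMSO alone, 3 were called higher (MT1X, MT2A and SLC30A1), where 53.6% of all genes were called, 27.7% higher and 25.9% lower. MTF1 was the exception, with 652, 415 and 574 counts with DMSO and 814, 566 and 732 at 500 nM. Its normalised level was 24.5 ± 1.35 and 23.4 ± 1.31 CPM, its log2 fold change -0.06 (SE 0.08), and its edgeR adjusted p 0.52. The sign of that value turned on the library-size scale (0.03) and on both TPM scales (0.06 and 0.07).

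In TMD8 at 500 nM the family sum reached 310 ± 28.3 CPM, 14.2-fold the DMSO level in CPM and 10.9-fold in TPM. MT2A had 1752, 1772 and 1405 counts, a log2 fold change of 4.08 (SE 0.14, edgeR adjusted p 3.0e-13). MT1X had 736, 691 and 533 counts and MT1F 332, 331 and 248, with log2 fold changes of 2.41 (SE 0.09) and 2.71 (SE 0.13). No 500 nM library of these genes overlapped with DMSO.

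Among the genes tested, MT1H, MT1G and MT1E again had the largest changes in TMD8, and they entered the test only through treated groups. MT1H had 468, 471 and 399 counts against 1, 2 and 1 with DMSO, a count ratio of 467 (exact 95% counting interval 182 to 1716). MT1G had 512, 478 and 386 counts, a log2 fold change of 6.88 (SE 0.21), which was 7.68 without DMSO library 2. MT1E had 440, 435 and 313 counts, a log2 fold change of 6.09 (SE 0.16). MT1M had 8, 3 and 3 counts, at least 2.08-fold above DMSO.

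SLC30A1 had 778, 736 and 532 counts in TMD8 at 500 nM, or 53.6 ± 2.03 CPM against 18.3 ± 0.711 with DMSO. That is a log2 rise of 1.55 (SE 0.07, edgeR adjusted p 2.4e-12), smaller than that of each metallothionein tested in the line. MTF1 fell from 30.9 ± 0.380 to 25.2 ± 0.922 CPM, a log2 fold change of -0.29 (SE 0.07, edgeR adjusted p 8.7e-04), with no overlap. In all, 7 of 8 genes tested were called higher and 1 lower. Without MT1E, MT1G and MT1H, which did not meet the low-count filter with DMSO alone, it was 4 higher and 1 lower of 5, where 60.7% of all genes were called, 29.9% higher and 30.7% lower.

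**Figure D2:**
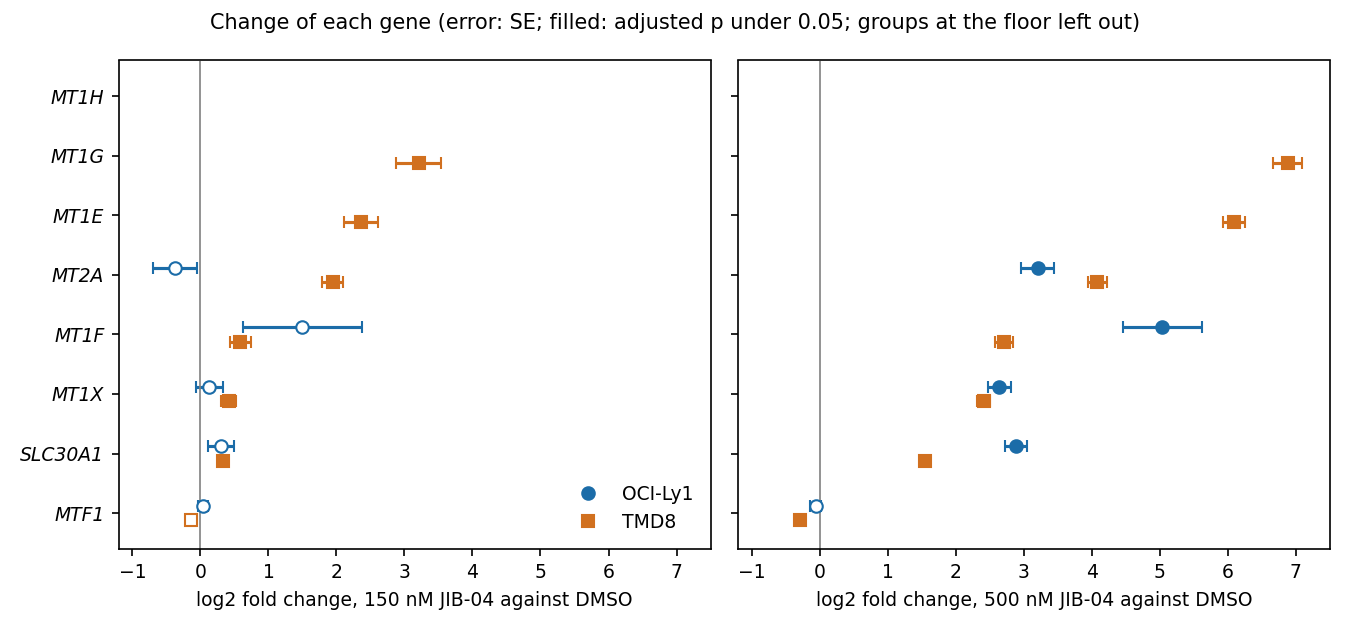
Log2 fold change of 150 nM JIB-04 (left) and 500 nM JIB-04 (right) against DMSO for each gene, from edgeR, with the standard error as the bar. Circles are OCI-Ly1, squares TMD8, and filled symbols are changes called at an adjusted p under 0.05. Comparisons with a group at 3 counts or fewer in every library are left out, so MT1H has no point, and MT1E and MT1G have none for OCI-Ly1. At 500 nM the metallothioneins and SLC30A1 lie between 1.55 and 6.88, and MTF1 at -0.06 and -0.29.

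In both lines most of the genes tested were called higher at 500 than at 150 nM. Only TMD8 had calls at 150 nM against DMSO. In OCI-Ly1, 6 of 7 genes tested were called higher at 500 than at 150 nM, and 3 of the 4 that met the filter at 150 nM alone (46.2% of all genes called, 25.1% higher and 21.1% lower), with log2 fold changes of 2.51 for MT1X, 3.58 for MT2A and 2.59 for SLC30A1. In TMD8, 7 of 8 were called higher (28.7% of all genes called, 13.7% higher and 15% lower), with 1.997 for MT1X, 2.14 for MT2A and 1.22 for SLC30A1. The family sum rose 8.75-fold over this step in OCI-Ly1 and 5.69-fold in TMD8. MT1M in TMD8 gave a count ratio of 17.7 over a single count, with an interval of 2.69 to 748. MTF1 passed the test over this step in neither line, with log2 fold changes of -0.10 in OCI-Ly1 and -0.16 in TMD8.

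The composition of the family changed with dose in TMD8, as shown by TPM, which allows levels of different genes to be set side by side. With DMSO, MT1X held 46.5% of the summed TPM, MT2A 34.9% and MT1F 15.3%, and the other 4 genes each held at most 1.52%. At 150 nM MT2A held 52.8% and MT1X 25.4%. At 500 nM MT2A held 42.1%, MT1X 17.7%, MT1G 12.9%, MT1H 12.5%, MT1E 7.55% and MT1F 7.15%.

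The order of levels in TMD8 at 500 nM was MT2A (272 ± 45.1 TPM), MT1X (114 ± 13.2), MT1G (82.8 ± 11.3), MT1H (81.0 ± 15.9), MT1E (48.5 ± 5.58), MT1F (45.99 ± 6.21) and MT1M (0.668 ± 0.260). MT1G and MT1H differed by less than their spread, as did MT1E and MT1F. MT1H, which was below MT1F in each DMSO library, was above it in each 500 nM library. In OCI-Ly1 at 500 nM, MT1X (71.25 ± 12.3 TPM) and MT2A (70.4 ± 9.82) did not differ beyond their spread and held 43.1% and 42.7% of the sum. MT1F followed at 10.2 ± 1.66 TPM, then MT1G at 7.19 ± 1.75 and MT1E at 5.56 ± 1.11. MT1H was at 0.771 ± 0.335 TPM there, 0.464% of the sum.

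**Figure D3:**
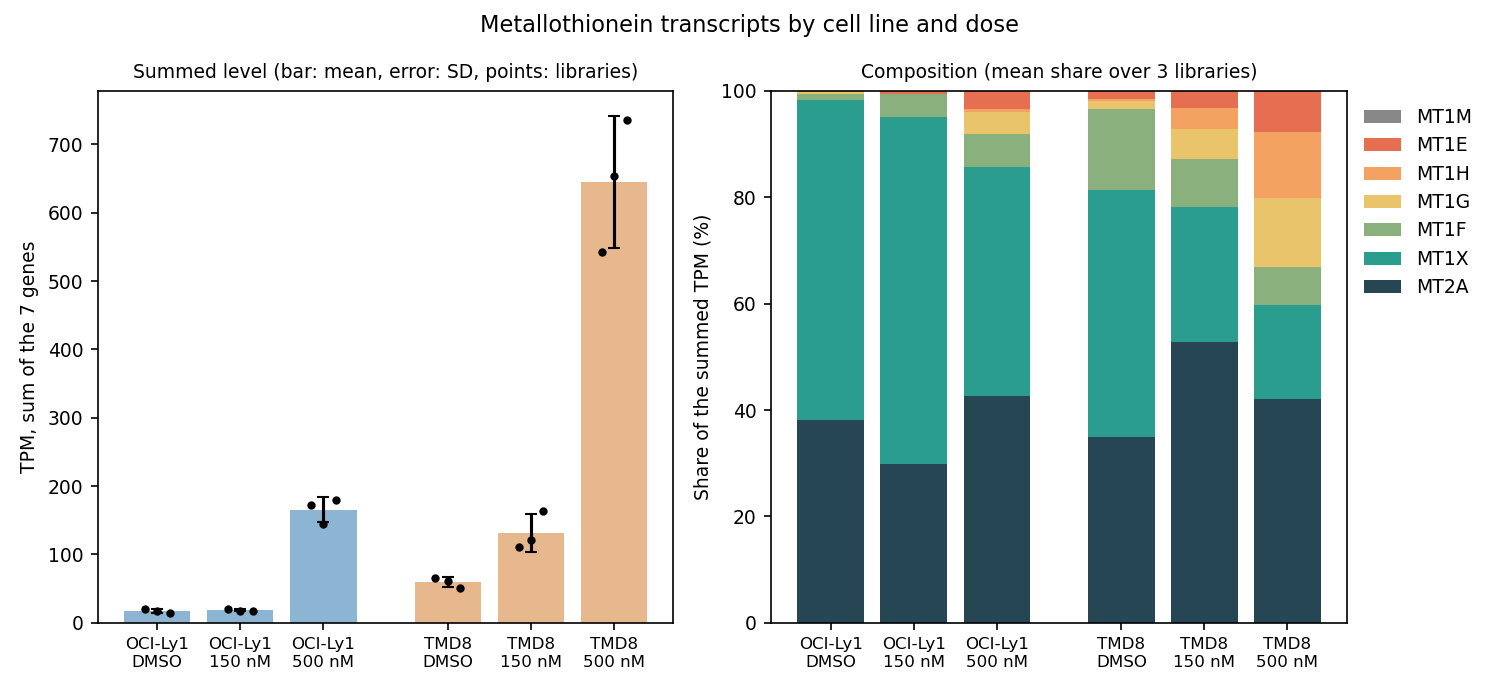
Left, the summed TPM of the 7 metallothioneins by line and dose, with bars for the mean of 3 libraries, error bars for the SD and points for libraries. Right, the mean share of each gene in that sum, in percent. The sum at 500 nM was 165 ± 18.7 TPM in OCI-Ly1 and 644 ± 96.6 TPM in TMD8, and MT1G and MT1H take visible shares at 500 nM in TMD8.

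The metallothionein genes resemble each other, so how reads were split between them is uncertain. Of the 31-base words in the GENCODE v29 transcripts of a gene, the share also found in transcripts of another gene was 27.7% for MT1H, 24.1% for MT1M, 23.3% for MT1G, 19.8% for MT1X and 15.6% for MT1E. It was 7.25% for MT2A, 3.25% for MT1F, 2.13% for MTF1 and 0% for SLC30A1. Counting only other metallothionein transcripts, the share was 5.3% for MT1X, 4.51% for MT2A and 23.8% for MT1M. It was unchanged for MT1H, MT1G, MT1E and MT1F. Of the 95 metallothionein values above 0, 57 were within 0.1 of a whole count. The family sum depends less on the split within the family than each gene does. It does not cover words shared only with genes outside the family, which were most of the shared words of MT1X. Among the other metallothionein symbols in the tables, MT1A, MT1B, MT1JP, MT1L, MT3, MT4 and MT1P2 held at most 3 counts in any library, and the pseudogene MT1DP at most 8. The pseudogene MT1IP held 24 to 61 counts in every library, at 1.83 ± 0.472, 1.64 ± 0.233 and 1.16 ± 0.152 CPM with DMSO, 150 nM and 500 nM in OCI-Ly1. With all these symbols added, the log2 ratio of the sum at 500 nM to DMSO was 2.56 in OCI-Ly1 in place of 3.12, and 3.67 in TMD8 in place of 3.82.

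The difference between lines was tested itself, as the change in OCI-Ly1 minus the change in TMD8 in a fit of all 18 libraries. At 150 nM 1 of 8 genes tested was called, MT2A, at -2.30 (SE 0.40, edgeR adjusted p 1.6e-04), where 23.3% of all genes were called and 8.33% called lower. SLC30A1 gave -0.02 (SE 0.20), with an interval from -0.43 to 0.39. At 500 nM 4 of 8 genes tested were called, where 46.4% of all genes were called, 28.2% higher and 18.1% lower. MT1E, MT1G and MT1H, whose OCI-Ly1 DMSO libraries held at most 1 count, give no usable value in this test.

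At 500 nM the exporter SLC30A1 rose more in OCI-Ly1, by a log2 difference of 1.37 (SE 0.16, edgeR adjusted p 1.9e-07). That difference ran from 0.87 to 1.82 over the alternatives. SLC30A1 levels at that dose were lower in OCI-Ly1 (11.5 ± 0.930 TPM) than in TMD8 (15.4 ± 1.46 TPM), with the groups not overlapping. The size of this gap also depended on the unit. In CPM scaled within each line, the levels were 15.7 ± 0.956 and 53.6 ± 2.03. MT1F also rose more in OCI-Ly1, by 2.32 (SE 0.60, edgeR adjusted p 0.0025). That value rests on its 4 DMSO counts in OCI-Ly1 and lay between 1.71 and 5.68 when single libraries were left out, the highest without OCI-Ly1 DMSO library 1. On the log2(TPM + 1) scale centred on the median it was 0.53 and not called (limma adjusted p 0.12). MT1X showed 0.26 (SE 0.20, interval -0.15 to 0.68) and was not called. Over 19 alternatives its value ran from 0.094 to 0.71, and it was called in 2 of them.

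MT2A rose less in OCI-Ly1 at 500 nM, by -0.84 (SE 0.32, edgeR adjusted p 0.033), but the call was weak. Without OCI-Ly1 DMSO library 1 the value was -0.45 and not called, and it was also not called without OCI-Ly1 DMSO library 2, OCI-Ly1 500 nM library 1 or 2, TMD8 DMSO library 1 or TMD8 500 nM library 3. DESeq2 gave -0.83 without a call, and no call was made at -0.39 on the log2(TPM + 1) scale, -0.26 on the log2(TPM + 0.1) scale or -0.84 on the centred scale. The difference of 0.26 for MTF1 (SE 0.10, edgeR adjusted p 0.038) lost its call without any 1 of 7 libraries: OCI-Ly1 DMSO 2 and 3, OCI-Ly1 500 nM 1 and 3, TMD8 DMSO 1, and TMD8 500 nM 2 and 3. It was also lost with library-size scaling, with no low-count filter and on the centred scale, where it was 0.066.

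At 500 nM each zinc transporter tested beyond SLC30A1 changed less than each metallothionein tested in the same line. Of 10 other zinc efflux genes (the SLC30 family and TMEM163), 7 were tested in OCI-Ly1 at 500 nM, and 4 were called higher and none lower (27.7% and 25.9% of all genes), with a median log2 fold change of 0.22 against -0.00 over all genes. In TMD8, 8 were tested, 3 higher and 3 lower (29.9% and 30.7% of all genes), with a median of 0.06 against 0.04. The count called higher became 1 in OCI-Ly1 on the centred scale and 1 in TMD8 on both TPM scales. SLC30A5, SLC30A6 and SLC30A9, carriers of internal membranes, rose in OCI-Ly1 (0.16, 0.64 and 0.22) and fell in TMD8 (-0.27, -0.18 and -0.27). The OCI-Ly1 calls of SLC30A5 and SLC30A9 were lost on the centred scale and the TMD8 call of SLC30A6 with library-size scaling.

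SLC30A7 rose in OCI-Ly1 (0.26, SE 0.08), a call also lost on the centred scale. In TMD8, SLC30A3, a vesicle zinc transporter, rose from 1.69 ± 0.119 to 5.13 ± 0.655 CPM (1.62 in log2, SE 0.19), and SLC30A8 and SLC30A4 by 0.77 (SE 0.27) and 0.30 (SE 0.10). On the log2(TPM + 1) scale the value of SLC30A3 was 0.58, that of SLC30A8 lost its call and that of SLC30A4 turned to -0.04. At 150 nM the efflux list had no calls in OCI-Ly1 and 1 in each direction in TMD8, where 0.889% and 44.2% of all genes were called. The TMD8 calls were SLC30A3 (1.08 in log2, SE 0.20) and SLC30A9 (-0.22, SE 0.06). That rise of SLC30A3 was larger than those of MT1F (0.58) and MT1X (0.42) at the same dose.

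Zinc importers of the SLC39 family, 14 in all, were called mostly higher in OCI-Ly1 and mostly lower in TMD8 at 500 nM. In OCI-Ly1, 7 of 11 tested were called higher and 1 lower (27.7% and 25.9% of all genes), with a median log2 fold change of 0.30. In TMD8, 3 of 11 were called higher and 6 lower (29.9% and 30.7% of all genes), with a median of -0.23. The TMD8 count called higher became 0 on both TPM scales. SLC39A1, SLC39A3, SLC39A6 and SLC39A14 rose in OCI-Ly1 (0.48, 0.49, 0.28 and 0.45) and fell in TMD8 (-0.31, -0.35, -0.55 and -0.39). SLC39A10, a plasma membrane importer, fell in both, by log2 fold changes of -0.70 and -1.01.

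SLC39A9, a zinc importer of the Golgi and plasma membrane, rose most of the importers in OCI-Ly1, from 116 ± 4.63 to 396 ± 14.4 CPM, or 1.77 in log2 (SE 0.05; adjusted p 1.9e-14 by edgeR). In TMD8 it went from 137 ± 9.73 to 169 ± 0.894 CPM (0.31, SE 0.05), which turned to -0.08 on both TPM scales. SLC39A11 rose in both lines (0.40 and 0.51), though the TMD8 call was lost on both TPM scales. SLC39A8 rose in OCI-Ly1 (0.18), which was lost on the centred scale. In TMD8 SLC39A13 rose (0.47) and SLC39A4 fell (-0.23). The SLC39A13 call was lost on both TPM scales (0.059 and 0.080) and on the centred scale, and that of SLC39A4 with library-size scaling. The difference between lines at 500 nM was called higher for 7 of 11 importers and lower for none, where 28.2% and 18.1% of all genes were called. At 150 nM 1 importer was called in OCI-Ly1, higher, and 7 in TMD8, of which 5 were lower, where 0.889% and 44.2% of all genes were called.

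**Figure D4:**
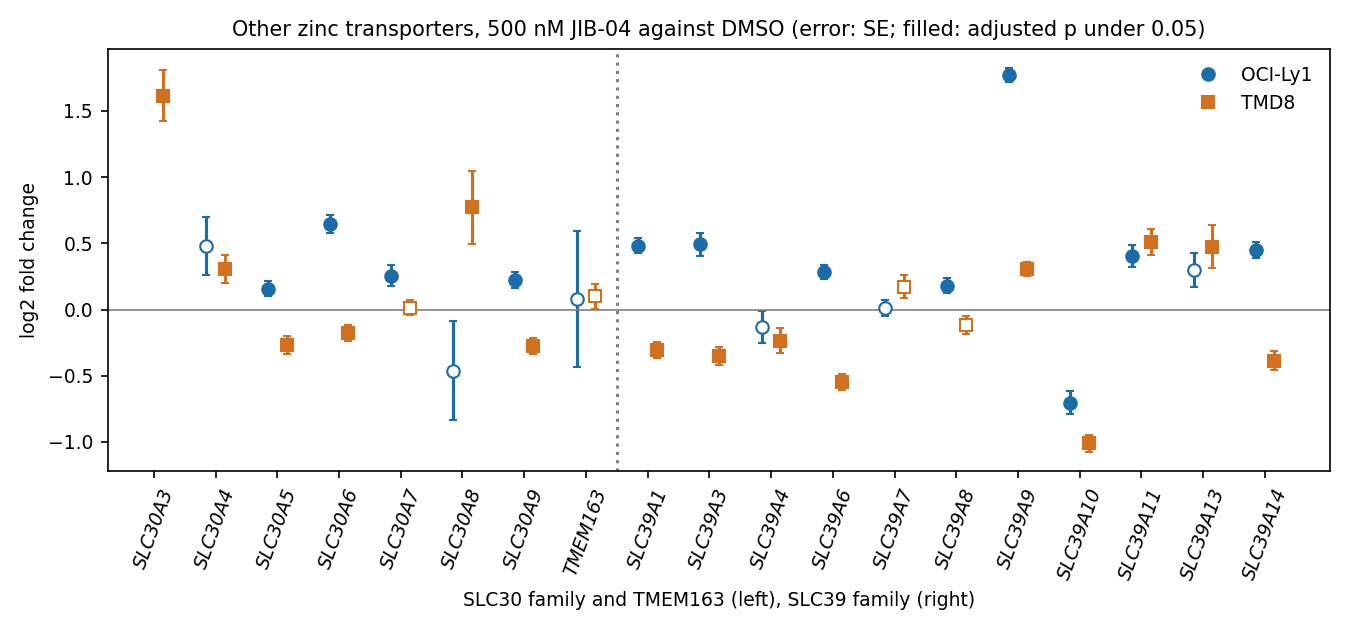
Log2 fold change of 500 nM JIB-04 against DMSO for the zinc transporter genes other than SLC30A1 that were tested, from edgeR, with the standard error as the bar. Efflux genes are left of the dotted line and importers right of it, circles are OCI-Ly1, squares are TMD8, and filled symbols are called at an adjusted p under 0.05. Values lie between -1.01 (SLC39A10, TMD8) and 1.77 (SLC39A9, OCI-Ly1).

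Copper handling genes, tested because metallothioneins also bind copper, did not rise as a group. Of 12 tested in each line at 500 nM, OCI-Ly1 had 1 called higher and 3 lower while TMD8 had 1 and 6, with medians of -0.00 and -0.22. Over all genes 53.6% were called in OCI-Ly1 and 60.7% in TMD8. The OCI-Ly1 count called lower became 1 with library-size scaling, 0 on both TPM scales and 5 on the centred scale. COX17, a copper chaperone for cytochrome oxidase, fell in both lines (-0.29 and -0.69), as did the copper-zinc enzyme SOD1 (-0.19 and -0.64) and MEMO1 (-0.17 and -0.48). On both TPM scales these 3 genes lost their calls in OCI-Ly1, as COX17 and MEMO1 did with library-size scaling. In TMD8, SCO2, SCO1 and ATOX1, also copper chaperones, fell by log2 fold changes of -1.03, -0.61 and -0.37. SLC31A1, the main copper importer, rose in OCI-Ly1 (0.40, SE 0.06) and had -0.00 in TMD8. The 1 gene called higher in TMD8 was the copper exporter ATP7A (0.33, SE 0.06), which the naming rule left out and which was added after its values were seen. On both TPM scales no copper gene was called higher in TMD8.

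The genes whose pattern over the 9 libraries of a line was most like the family sum were not metal genes by name. In OCI-Ly1 they were NFKBIA (Pearson r of log2 CPM 0.997), PAG1, LIMK2, ZNF496 and GPR108, out of 10788 genes with a mean of at least 5 CPM. NFKBIA, an inhibitor of NF-kB, stood at 57.9, 59.2 and 137 CPM with DMSO, 150 and 500 nM. In TMD8 they were WNT10A (0.996), ACSS1, MYLIP, ABTB1 and TNFRSF13C, out of 11424 genes. WNT10A stood at 43.1, 52.9 and 75.5 CPM.

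SLC30A1 followed the family sum with r of 0.987 in OCI-Ly1 (rank 46) and 0.983 in TMD8 (rank 80), and MTF1 with -0.44 and -0.95. All these values are over libraries that share their 3 groups, and they are descriptions with no test.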

How the data were processed

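The authors deposited estimated counts and TPM values per gene symbol for each cell line. Per the submitters' processing notes, kallisto 0.46.0, R 4.3.1, DESeq2 1.40.2 and the build hg19 were used, and the step from transcripts to genes is not given in the sources used here. The deposited TPM values sum to 1000000 in each library. Strand was not stated, so overlapping and antisense genes cannot be told apart.

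Estimated counts were rounded to whole numbers and tested with edgeR 4.0.16 in R 4.3.3: the quasi-likelihood test, TMM normalization and edgeR's filter on low counts by group. The 9 libraries of a line were fitted together, and the line difference and the DMSO groups in 1 fit of all 18. Adjustment followed Benjamini and Hochberg over all genes of a contrast, with the threshold at 0.05. The test was checked on simulated data, with changes planted only in well-counted genes and a common spread for all genes. That check does not cover genes near the floor. No pair of libraries of a group agreed within sampling noise (chi-square per degree of freedom 1.62 to 10.9). A group with at most 3 counts in every library was taken as at the floor. A fold against a group at 0 is given as a lower bound, with 3 counts per library as the floor, and one against a few counts as a ratio of counts scaled by library size, with an exact 95% interval.

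Alternatives were DESeq2 1.42.0, library-size scaling, no filter, a replicate block, limma 3.58.1 on log2(TPM + 1) and log2(TPM + 0.1), the former also centred on the median, other family sums, and leaving out each library. The genes and lists were chosen with earlier results of these data known. All 9 genes were named whatever their values. From the lists, every gene called at 500 nM in both lines was named, with up to 3 more per line by size of change, and the 5 genes nearest to the family sum in each line. Members of the family are compared in TPM. Promoters are from the RefSeq table and carry its build. Per-gene coordinates in hg19 were not used here. One further B cell marker is not reported here.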

Additional observations from a re-analysis of the deposited data

Results flagged for a closer look

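Between the lines, the change against DMSO (OCI-Ly1 minus TMD8, log2, edgeR test of the difference with Benjamini-Hochberg adjustment over all genes) passed the threshold for these genes. At 150 nM it was -2.30 for MT2A, which had no call in OCI-Ly1 and rose in TMD8. At 500 nM it was 1.37 for SLC30A1, 2.32 for MT1F, -0.84 for MT2A and 0.26 for MTF1. The values of MT2A and MTF1 lost their calls when single libraries were left out, and that of MT1F on the log2(TPM + 1) scale centred on the median (0.53).

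Among zinc efflux genes at 500 nM the difference was 0.46 for SLC30A5, 0.85 for SLC30A6, 0.27 for SLC30A7, -1.205 for SLC30A8 and 0.53 for SLC30A9. Among importers it was 0.82 for SLC39A1, 0.88 for SLC39A3, 0.86 for SLC39A6, 0.33 for SLC39A8, 1.496 for SLC39A9, 0.34 for SLC39A10 and 0.87 for SLC39A14. Among copper genes it was 0.43 for SLC31A1, 0.43 for COX17, 0.59 for SCO1, 0.80 for SCO2, 0.47 for SOD1 and 0.35 for MEMO1, and it was -0.25 for ATP7A, which lay outside the naming rule and was added after its values were seen. On both TPM scales no copper gene had a difference called lower. The call of SLC30A7 was lost with library-size scaling and on the centred scale, and that of SLC30A8 on both TPM scales, at -0.11 and -0.47. SLC39A10 fell in both lines, and less in OCI-Ly1, a difference not called on the centred scale. Line and medium cannot be told apart in any of these values.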

How the results depend on the processing

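MT1H between the DMSO groups, with both at the floor, was not taken through the alternatives. Of 46 other called results of the 9 genes, 40 kept their direction and their call under every alternative run, as did 601 of 628 alternative values. This tally includes results of MT1E, MT1F, MT1G and MT1H in comparisons where they passed the low-count filter only through treated groups. Their selection favoured a call, so a kept call is no separate support for them. A tally without them was not made. The replicate block changed no call count of the 9 genes: in OCI-Ly1 it gave 0 calls at 150 nM and 6 at 500 nM, in TMD8 7 and 8, and for the line difference 1 and 4. Deviations of same-numbered libraries were weakly related (r between -0.0462 and 0.146 for OCI-Ly1, and between -0.0545 and 0.141 for TMD8). For differently numbered libraries r was -0.173 to 0.042 and -0.190 to 0.105. The highest values in each line were for same-numbered DMSO and 150 nM libraries. Whether the numbers pair the libraries cannot be told from these values.

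The scale moved the median of all genes at 500 nM in TMD8 from 0.04 to -0.22 with log2(TPM + 1), -0.31 with log2(TPM + 0.1) and 0.13 with library size, and in OCI-Ly1 from -0.00 to 0.10, 0.13 and 0.08. The log2 fold change of MTF1 turned in OCI-Ly1 at 500 nM against DMSO to 0.026 (library size), 0.061 (TPM + 1) and 0.074 (TPM + 0.1), and at 500 against 150 nM to 0.0033 and 0.0038 on the TPM scales. The MTF1 gap between DMSO groups turned to 0.39 and 0.49. In TMD8 at 500 nM SLC30A4 turned to -0.040 and -0.060 and SLC39A9 to -0.080 and -0.084 on the TPM scales. The SLC30A1 line difference at 150 nM (-0.02) turned to 0.0020 (DESeq2), 0.063 and 0.17 (TPM scales), and ran from -0.26 to 0.23 when single libraries were left out. The cause was not tested.

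The count of the 9 genes with a line difference at 150 nM was 1, and became 2 with DESeq2, 4 with log2(TPM + 1), 3 with log2(TPM + 0.1) and 4 with the centred scale. It was 1 to 2 when single libraries were left out, 2 without OCI-Ly1 DMSO library 1. At 500 nM it was 4, became 7 with log2(TPM + 1), and was 2 to 4 when single libraries were left out: 2 without OCI-Ly1 DMSO library 2, OCI-Ly1 500 nM library 1, TMD8 DMSO library 1 or TMD8 500 nM library 3. The log2 ratio of the family sum with all metallothionein symbols was 2.56 in OCI-Ly1 (3.12 with the 7 genes) and 3.67 in TMD8 (3.82) at 500 nM against DMSO, and 2.61 (3.13) in OCI-Ly1 at 500 against 150 nM. The sum of TPM gave 3.44 in TMD8 at 500 nM against DMSO. MT1H and MT1M in OCI-Ly1 and MT1M in TMD8 had too few counts at these depths to test. Alternatives for the transporter and copper lists were chosen after seeing the data.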
